A study of Mus musculus with 4 samples.

Results

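Liver endothelial cells that carried transcripts of Selp, which encodes the adhesion receptor P-selectin, were described in a single-cell library of mice with fatty liver injury. A barcode of the negative injury library counted as a cell when it had 1000 or more transcripts, each counted once by its unique molecular identifier (UMI), 300 or more genes and no more than 20% mitochondrial UMIs. An endothelial gate then took cells with at least 30 UMIs per 10000 of Clec4g, Stab2, Dnase1l3, Gpr182, Kdr and Ptprb together. Mesothelial genes (Msln, Upk3b, Nkain4, Lrrn4) had to stay under 10 per 10000, duct genes (Spp1, Tm4sf4, Epcam) under 30 per 10000, and the central vein genes Rspo3 and Wnt9b under 3 UMIs. Selp-positive cells were selected on their measured count, 2 or more Selp UMIs, which 758 of 3287 gated cells met. The 3 libraries with counts held 10215 kept cells. Gated cells with 0 Selp UMIs, called Selp-zero here, numbered 2117 and were the reference, and 412 cells with 1 Selp UMI lay between.

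The study placed non-parenchymal liver cells into 4 libraries, the positive and negative fractions of Col1a2-CreERT2 reporter mice at injury and in recovery. In such mice an inducible Cre under the promoter of a collagen gene switches on the red protein tdTomato in collagen-producing cells, so endothelial cells, which the Cre does not target, were read from the negative fraction. The genotype labels read Col1a2-CreERT2; R28RtdTomato for the negative injury, R29RtdTomato for the negative recovery, R26RtdTomato for the positive injury and R27RtdTomato for the positive recovery library. Injury was induced by 8 weeks of a 45% high-fat diet lacking methionine and choline, with 0.1% L-methionine given in the water. The labels give neither the duration of recovery, nor the age or sex of the mice, nor how many mice entered a library. Each group was 1 library and cells are not replicates, so no difference was tested, and intervals (95%, exact) cover counting error only.

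The Selp gene lies on mouse chromosome 1 (164115264 to 164150026, + strand, GRCm38). P-selectin is stored with von Willebrand factor in the Weibel-Palade bodies of endothelial cells and reaches the surface on stimulation, where it catches passing leukocytes. It is classically a protein of venules. Sinusoidal endothelium of the healthy liver, a fenestrated lining that clears waste from portal blood, is known to hold little of it, while inflamed vessels make more.

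The negative injury library held 5271 kept cells with a median of 6995 UMIs, against 2818 cells and 8815 UMIs in negative recovery. Positive recovery held 2126 kept cells. The counts of the positive injury library were not analysed here. Negative injury shared between 3 and 9 barcodes with each other library, and 3 of the 758 Selp-positive cells were among them. The doublet caller marked 0.266% of cells at injury and so did not work, and doublets remain. The median depth was 7051.5 UMIs in Selp-positive, 6240.5 in 1-UMI and 5447 in Selp-zero cells. The order of depth is the order of the Selp classes, and a deeper cell has more chances to show a Selp UMI. Mitochondrial UMIs were level, at a median of 5.25% in Selp-positive and 5.18% in Selp-zero cells, while Gm42418, a transcript that overlaps ribosomal RNA, was at 5018 against 8837 CPM, that is, UMIs scaled to a total of 1e+06 in the summed cells of a class.

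Selp itself was frequent at injury and close to absent from the same gate in recovery. Of the gated cells 23.1% (21.6 to 24.5) had 2 or more Selp UMIs at injury, against 14 of 2085 cells, or 0.671% (0.368 to 1.12), in negative recovery. In positive recovery 0 of 145 gated cells did. Over all gated cells Selp stood at 226 (220 to 233) CPM at injury and 4.50 (3.56 to 5.62) CPM in negative recovery. Central vein cells, which passed the gate but had 3 or more Rspo3 plus Wnt9b UMIs, carried more of it, 1434 (1388 to 1482) CPM in 328 cells at injury and 532 (501 to 565) CPM in 176 cells in recovery. Selp-positive cells held 45.7% and central vein cells 40.6% of all Selp UMIs of kept cells in the injury library. Bile duct cells of the same library, which should lack the gene, gave a background of 3.73 CPM, with a Selp UMI in 2.49% of 1005 cells at a median of 15142 UMIs. In positive recovery the 59 central vein cells were at 45.9 CPM.

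With each cell thinned to 1000 UMIs, a Selp UMI remained in 14.5% (13.3 to 15.8) of gated cells at injury and in 0.480% (0.230 to 0.880) in recovery. Duct cells were at 0.697% at injury and 0.265% (0.00672 to 1.47) in recovery, so at this depth the gated recovery share was not distinguishable from that of duct cells. Over all UMIs, duct cells of the recovery library had 0.187 (0.00472 to 1.04) CPM, with 1 of 377 cells carrying a Selp UMI, which is under the 4.50 CPM and 1.68% (1.17 to 2.33) of gated recovery cells. Central vein cells kept a UMI in 60.7% at injury and 30.1% in recovery. In the negative fraction the order among these sets was the same at equal depth. Central vein cells came first, gated injury cells next, and duct cells with gated recovery cells last. The 59 central vein cells of positive recovery were at 6.78% (1.88 to 16.5), under the gated injury cells. A further 22 vascular cells at injury, selected on Vwf and Ly6c1 outside the gated cells, had Selp at 651 (519 to 806) CPM. After thinning 27.3% (10.7 to 50.2) of them kept a Selp UMI.

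**Figure D1:**
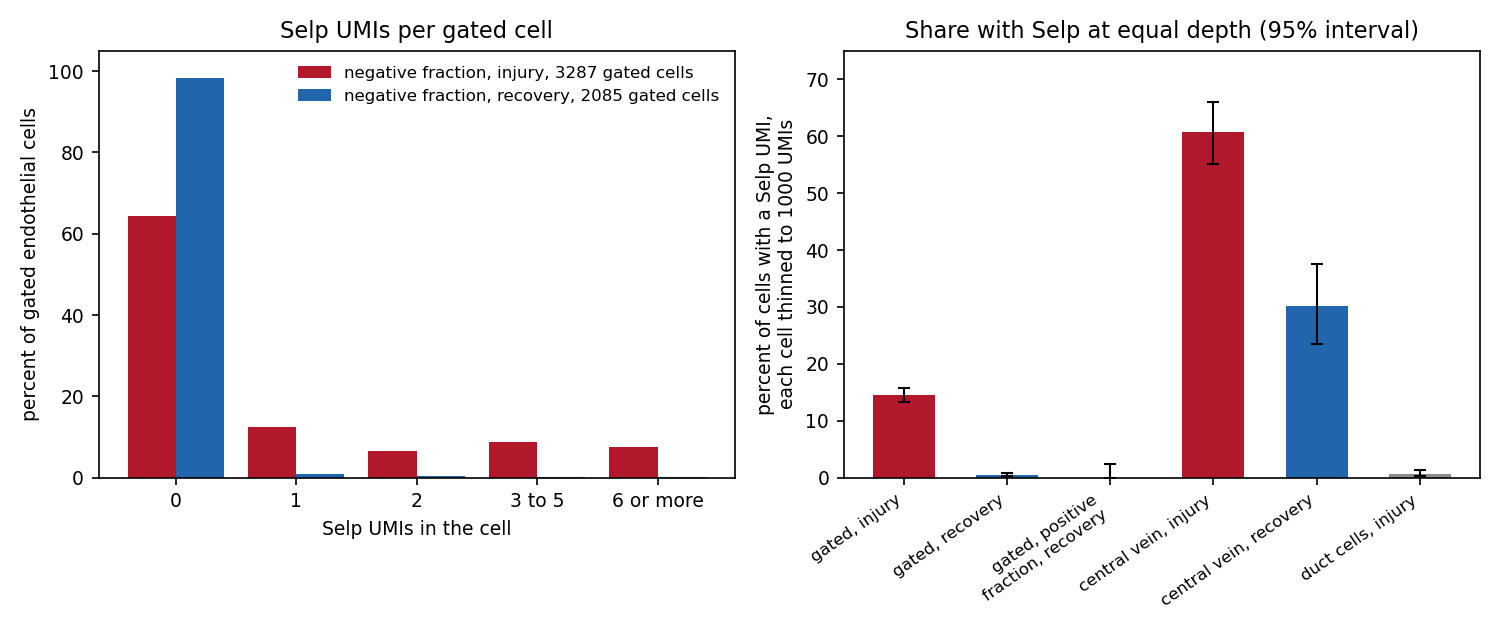
Left, percent of gated endothelial cells (vertical axis) by Selp UMIs in the cell (horizontal axis) in the negative injury and negative recovery libraries. Right, percent of cells with a Selp UMI after each cell was thinned to 1000 UMIs, by cell set, with exact 95% intervals of counting error. Gated injury cells reach 14.5% and gated recovery cells 0.480%, while central vein cells reach 60.7% and 30.1%.

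Among the Selp-positive cells the count per cell ran from 2 to 59 with a median of 4. The class split into 220 cells with 2 UMIs, 291 with 3 to 5 and 247 with 6 or more. Just inside the threshold, cells with 2 Selp UMIs had Inhbb at 338 and Olr1 at 25.4 CPM, and just outside, cells with 1 UMI had 329.8 and 12.4 CPM. Inhbb was nearly the same on both sides and Olr1 was not, so the threshold of 2 UMIs cuts through a range of levels. The gate genes, which the rule used, were lower in Selp-positive cells, with a median of 97.2 per 10000 against 124 in Selp-zero and 73.1 in central vein cells. A single or second Rspo3 or Wnt9b UMI occurred in 15.2% of Selp-positive, 9.95% of 1-UMI and 5.67% of Selp-zero cells.

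General endothelial genes were level between the classes. The 10 general endothelial genes had a median log2 ratio of 0.00 between Selp-positive and Selp-zero cells (log2 of CPM with 10 added, the scale of all ratios here). The junction protein Cdh5 was at 817 against 793 CPM and Pecam1 at 691 against 689.6 CPM. Platelets also carry P-selectin, but their markers summed to 49.4 and 49.8 CPM, and Gp9, Gp6, Gp5, Gp1bb, Tubb1 and Treml1 had 0 UMIs in Selp-positive cells. Most of that sum was Itga2b, at 38.1 against 35.1 CPM. Lymphocyte genes summed to 0.902 and 0.423 CPM, with 7 of 9 at 0 in Selp-positive cells, and neutrophil genes to 0.902 and 0.423 CPM, with 3 of 6 at 0. Macrophage genes summed to 125 and 121 CPM, led by C1qb at 55.8 and 55.1 CPM, with Timd4 at 0. Hepatocyte genes summed to 294 and 248 CPM, led by Alb at 139 CPM in Selp-positive cells. The sum was lower in Selp-positive cells for stellate genes, at 129 and 162 CPM, and for duct genes, at 108 and 143 CPM. Mesothelial genes were level at 21.5 and 22.8 CPM. The part of RNA from other cells in the ratios below was not tested.

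Of the other 5 genes proposed as markers, 4 were higher in Selp-positive cells and 1 was nearly level. Inhbb, the beta B subunit of activin B and of inhibin B, was at 514 (495 to 533) CPM in Selp-positive and 239 (231 to 248) CPM in Selp-zero cells, a 2.14-fold (2.04 to 2.26) difference. It climbed with the Selp count, from 338 at 2 UMIs to 481 at 3 to 5 and 679 CPM at 6 or more. Gated recovery cells without Selp had 57.4 CPM, lower than any injury class.

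Lrg1, a secreted glycoprotein that modulates TGF-beta signalling in endothelium, was at 644 (623 to 666) against 352 (341 to 363) CPM, or 1.83-fold (1.75 to 1.92). Thbd, thrombomodulin, the thrombin receptor that starts protein C activation, was at 788 (765 to 812) against 468 (456 to 481) CPM, or 1.68-fold (1.62 to 1.75). Adamts4, a secreted protease of proteoglycans, was at 287 (273 to 301) against 179 (171 to 187) CPM (0.65). These intervals cover counting error only. They did not overlap for the 3 genes, but neither did those of Lyve1 at a 1.10-fold difference, so this does not set the 3 apart. Lyve1, a hyaluronan receptor of sinusoidal and lymphatic endothelium, was at 1786 (1751 to 1821) against 1628 (1605 to 1651) CPM, or 1.10-fold (1.07 to 1.12), so it separated the Selp classes little. In recovery Lyve1 was at 493 CPM in Selp-zero gated cells and 483 CPM in gated cells of the positive fraction. Lrg1 at 43.3 and Adamts4 at 26.5 CPM were also lower in negative recovery than in either injury class, and Thbd was at 235 CPM.

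**Figure D2:**
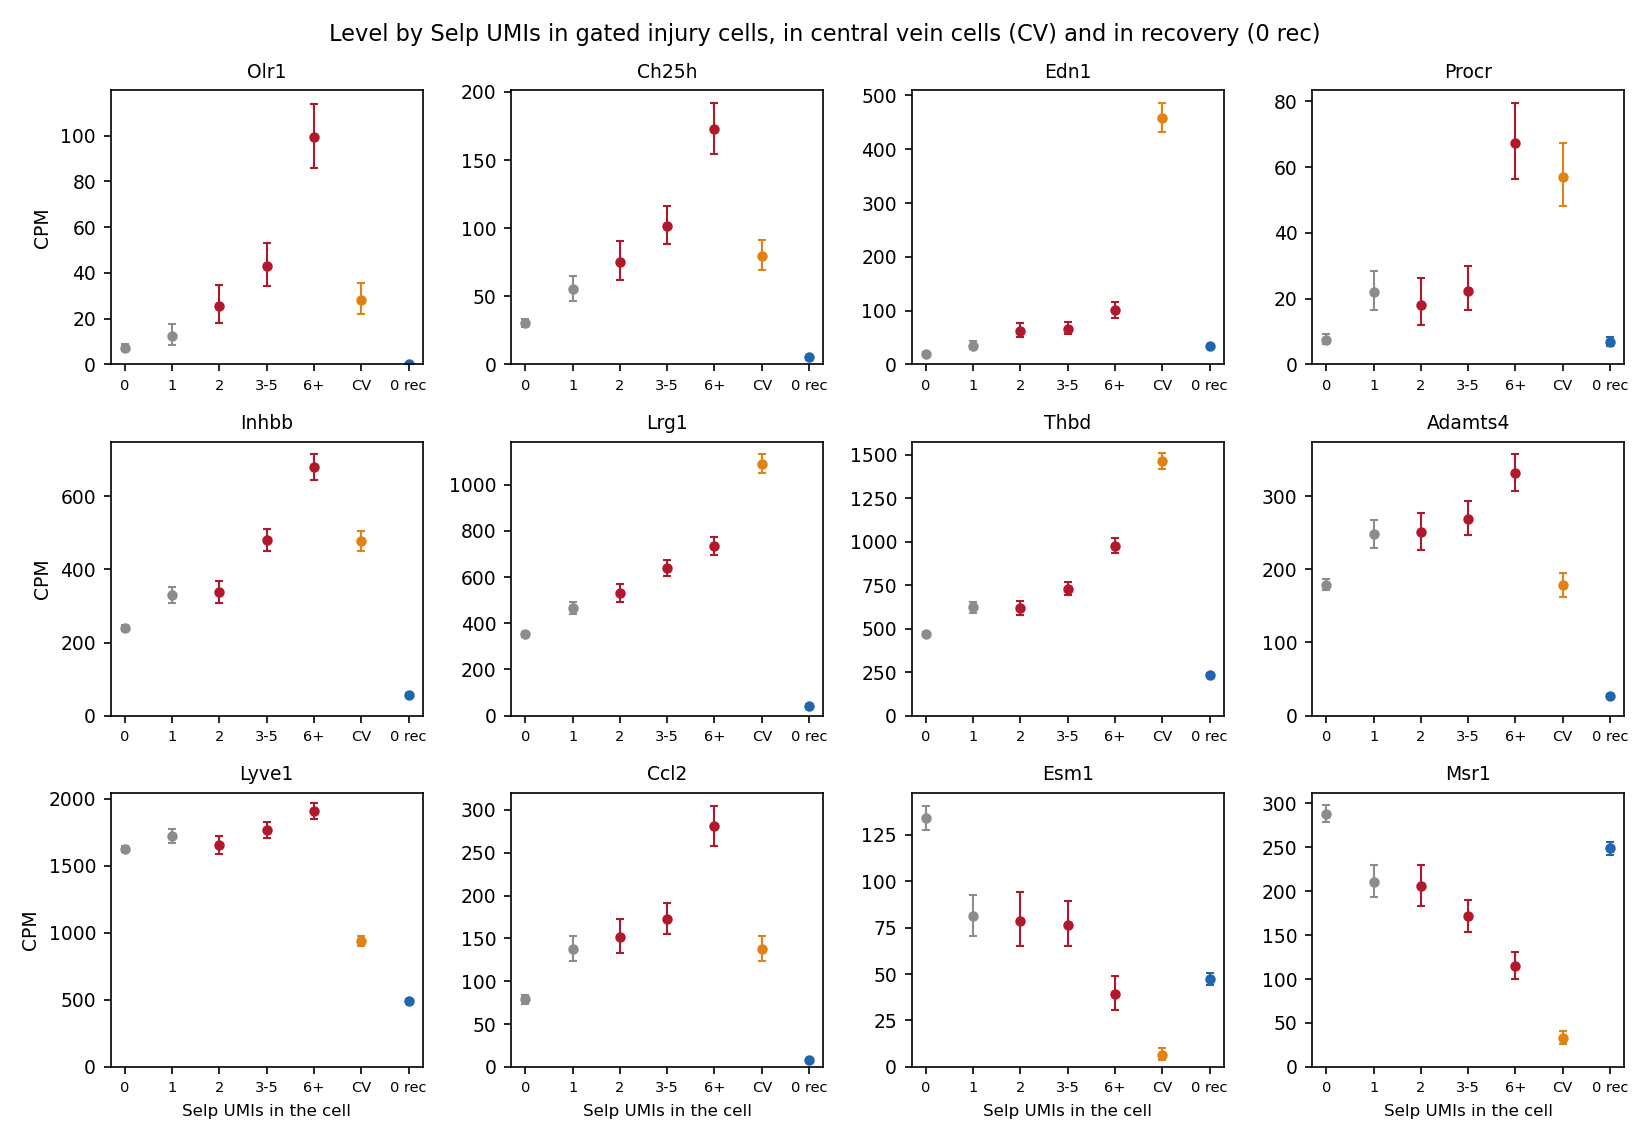
CPM of 12 genes (vertical axes, each starting at 0) by Selp UMIs in the cell: gated injury cells with 0, 1, 2, 3 to 5 and 6 or more (6+), central vein cells at injury (CV) and gated recovery cells without Selp (0 rec). Bars are exact Poisson 95% intervals. Olr1 goes from 7.28 to 99.3 CPM and Esm1 from 134 to 39.1 CPM across the Selp classes.

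Over 8084 genes with a mean of at least 10 CPM, Selp and the gate and rule genes left out, 17 (0.210%) were at least 2-fold higher in Selp-positive cells and 2 (0.0247%) at least 2-fold lower. At 1.5-fold 96 genes (1.19%) were higher and 19 (0.235%) lower. The median ratio was 0.00. With a gate of 60 instead of 30 per 10000 the 17 became 10, of which 9 were among the 17, and with 1 instead of 10 CPM added they became 43, all 17 included. The rule used this contrast, so its genes are a description of the classes, not independent support for them.

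The gene with the highest ratio was Olr1, the scavenger receptor LOX-1 that takes up oxidized low-density lipoprotein. It was at 58.5 (52.3 to 65.2) CPM against 7.28 (5.82 to 8.99) CPM, or 8.03-fold (6.32 to 10.3). It was found in 14.5% of Selp-positive and 3.54% of Selp-zero cells, so most Selp-positive cells showed no Olr1 UMI. Thinned to 1000 UMIs the shares were 3.43% and 0.803%. Its level by Selp count was 25.4, 42.9 and 99.3 CPM, and gated recovery cells had 0.235 CPM. Ch25h, the enzyme that makes 25-hydroxycholesterol, was at 75.5, 101 and 172 CPM by Selp count against 30.2 (27.2 to 33.5) CPM in Selp-zero cells, a 3.97-fold (3.49 to 4.53) difference over all Selp-positive cells. It was seen in 27.0% of Selp-positive and 9.12% of Selp-zero cells. Edn1, the vasoconstrictor endothelin-1, was at 77.6 (70.4 to 85.3) against 19.6 (17.2 to 22.3) CPM.

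Procr, the endothelial protein C receptor, was at 37.4 (32.4 to 42.8) against 7.53 (6.05 to 9.27) CPM. It was highest where Selp was highest, at 67.2 CPM in cells with 6 or more Selp UMIs against 22.4 CPM at 3 to 5. Emp1, an epithelial membrane protein, was at 112 against 36.3 CPM. Kcnj8, the pore subunit of an ATP-sensitive potassium channel, was at 143 against 52.0 CPM. Ccl2, the monocyte attractant, was at 206 (194 to 218) against 78.8 (73.8 to 84.0) CPM. It reached 281 CPM in cells with 6 or more Selp UMIs, while gated recovery cells had 7.82 CPM.

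The remaining genes of the 15 with the highest ratios at a mean of at least 20 CPM were Npy (1.36), Tubb6 (1.32), Timp1 (1.14), Sh3pxd2a (1.12), Map1b (1.12), Cdh13 (1.06) and Fbln2 (1.04), given as log2 ratios. Npy encodes a neuropeptide, Tubb6 and Map1b belong to microtubules, Timp1 inhibits metalloproteinases, and Cdh13 is T-cadherin. The other two genes past 2-fold, Synpo (1.03) and Tnfrsf9 (1.14), were named after their values were seen. All 15 genes were higher at 6 or more Selp UMIs than at 2, and all were higher at 1 than at 0. The genes were chosen on the cells with 2 or more and with 0 Selp UMIs, so these counts are description only. The share of all compared genes with the same order was not counted.

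At the other end C3, complement component 3, was at 31.0 against 78.9 CPM (-1.11), but without the highest doublet scores its ratio was 0.18 and in cells of 5000 to 15000 UMIs 0.15. Duct cells of the library carried C3 at 1329 CPM, and their part in the C3 value was not tested. Esm1, endocan, a proteoglycan of sprouting vessels, was at 63.7 (57.2 to 70.7) against 134 (128 to 141) CPM. Msr1, a scavenger receptor, was at 160.2 (149.9 to 171) against 288 (279 to 298) CPM. Both declined with the Selp count, Esm1 from 78.8 to 39.1 and Msr1 from 206 to 115 CPM between 2 and 6 or more Selp UMIs. Ccnd1, cyclin D1, was at 72.2 against 138 CPM, and the second gene past 2-fold lower was the lectin Cd209b, at 3.97 against 18.8 CPM.

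The other 11 of the 15 lowest genes lay between -0.82 and -0.60. Ifi208, Ifi213, Ifi206 and Stat2 among them are interferon-responsive, and the 3 Ifi genes are closely related copies, so the authors' counting may have split reads between them. Gm42418, Gpr155, Dcn, Tns3, Flrt1, Mcc and Tmem204 were the other 7. Of the 15 lowest genes 14 were lower at 6 or more Selp UMIs than at 2, with C3 the exception. All 15 were lower at 1 Selp UMI than at 0. These genes too were chosen on cells of the same classes, so the counts are description only.

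**Figure D3:**
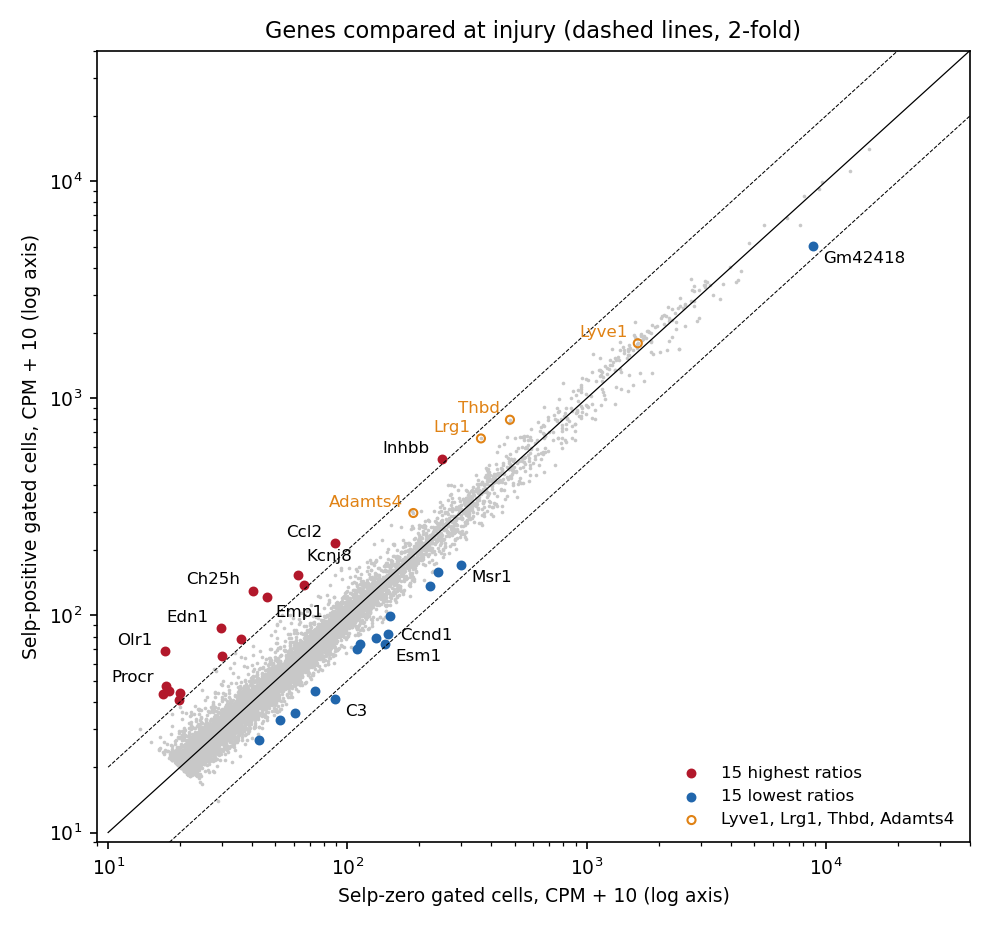
Each grey point is 1 of the genes compared at injury, with CPM plus 10 in Selp-zero (horizontal, log axis) and Selp-positive gated cells (vertical, log axis). The solid line marks equality and dashed lines 2-fold. The 15 highest and 15 lowest ratios are filled points and 4 proposed markers are open circles. Most genes lie near the line, with Lyve1 close to it and Olr1, Edn1 and Ch25h above the 2-fold line.

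Promoters are shown for leading genes that were high in the same cells. Sequences are from RefSeq on GRCm38.p6, 250 bases before to 50 after the transcription start, given 5′ to 3′ on the gene's strand. Of the 20 genes made up of the markers and the 15 highest, 13 were matched, and Lyve1, Thbd, Adamts4, Tubb6, Ccl2, Sh3pxd2a and Cdh13 were not used here. Capitals mark matches to the motifs searched on both strands: AP-1 (TGANTCA), STAT (TTCNNNGAA), the motif bound by GATA factors (AGATAA), the core of the interferon-stimulated response element (GAAANNGAA) and kappaB. The first 2 motifs read alike on both strands, and AP-1 and STAT overlap at 1 place in Emp1. The 4 promoters with AP-1 letters are Selp (chr1:164115014-164115313, + strand), Olr1 (chr6:129507116-129507415, - strand), Procr (chr2:155750967-155751266, + strand) and Emp1 (chr6:135362681-135362980, + strand).
Selp: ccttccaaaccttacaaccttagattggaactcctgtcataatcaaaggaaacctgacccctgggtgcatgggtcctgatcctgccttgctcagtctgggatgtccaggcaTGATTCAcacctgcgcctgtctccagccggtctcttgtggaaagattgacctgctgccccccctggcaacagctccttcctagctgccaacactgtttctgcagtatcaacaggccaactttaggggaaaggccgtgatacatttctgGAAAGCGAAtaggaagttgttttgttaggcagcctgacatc
Olr1: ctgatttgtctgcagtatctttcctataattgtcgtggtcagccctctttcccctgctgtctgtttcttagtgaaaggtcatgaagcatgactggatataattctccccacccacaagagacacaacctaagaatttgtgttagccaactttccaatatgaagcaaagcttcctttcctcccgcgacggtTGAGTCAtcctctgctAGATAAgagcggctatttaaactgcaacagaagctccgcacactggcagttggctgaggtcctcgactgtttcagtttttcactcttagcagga
Procr: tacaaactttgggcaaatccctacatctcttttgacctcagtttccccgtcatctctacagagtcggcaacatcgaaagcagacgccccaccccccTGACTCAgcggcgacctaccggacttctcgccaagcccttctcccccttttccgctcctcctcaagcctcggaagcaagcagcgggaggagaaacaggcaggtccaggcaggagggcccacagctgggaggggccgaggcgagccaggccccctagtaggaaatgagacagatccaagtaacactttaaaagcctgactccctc
Emp1: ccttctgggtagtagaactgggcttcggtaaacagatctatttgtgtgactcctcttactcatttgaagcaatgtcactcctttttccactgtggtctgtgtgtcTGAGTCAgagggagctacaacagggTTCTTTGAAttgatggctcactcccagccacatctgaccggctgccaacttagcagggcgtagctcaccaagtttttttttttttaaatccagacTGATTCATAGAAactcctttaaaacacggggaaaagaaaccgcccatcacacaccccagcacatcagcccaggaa

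The AP-1 letters stood at positions -139 to -133 in Selp, -60 to -54 in Olr1, -154 to -148 in Procr, and -145 to -139 and -25 to -19 in Emp1, counted from the transcription start. They were in 4 of 13 matched genes, against 8.97% of all 27025 genes with a promoter in the table. Selp, which the rule used, is counted in the 4 and in the 13. Emp1 has another promoter (chr6:135367243-135367542, + strand) without a match to these motifs, and a gene counted when any of its promoters matched. STAT letters were in 1 of 13 (9.55% of all), GATA letters in 3 (12.7%), the interferon element core in 3 (9.76%) and kappaB in 0 (5.14%). Of the 8 matched genes among the 15 lowest, 4 held the interferon element core, Ifi208, Ifi213, Ifi206 and Stat2, and 0 held AP-1. The promoters of the 3 Ifi genes are nearly the same sequence, so their matches are not separate ones. The Ifi208 promoter (chr1:173673415-173673714, + strand) is shown as an example of the low group, with its core at -58 to -50.
Ifi208: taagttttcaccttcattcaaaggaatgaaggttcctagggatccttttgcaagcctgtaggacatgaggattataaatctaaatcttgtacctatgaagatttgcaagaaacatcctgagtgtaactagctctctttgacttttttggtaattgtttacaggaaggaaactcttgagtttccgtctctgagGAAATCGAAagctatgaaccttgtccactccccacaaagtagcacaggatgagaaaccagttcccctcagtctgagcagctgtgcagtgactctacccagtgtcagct
A match describes letters in this window only. Of the AP-1 subunits, Fos was at 2658 against 2799.5 CPM, Jun at 3333 against 3081 CPM and Junb at 3312 against 3261 CPM. The part of AP-1 in the levels of these genes was not tested.

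Gene lists were then read one role at a time, beside the median of 0.00 over all genes compared. Of 14 leukocyte adhesion genes compared, 9 were above 0 and 0 past 2-fold, with a median of 0.02. E-selectin, Sele, which like P-selectin captures leukocytes, was at 90.6 (82.8 to 98.9) against 47.8 (44.0 to 51.9) CPM, and recovery cells had 7.47 CPM. The integrin ligands Icam1 (714 against 577 CPM) and Vcam1 (772 against 615 CPM) were modestly higher. The junctional adhesion molecule Jam2 was at 591 against 421 CPM, while Podxl (-0.35) and Cd47 (-0.26) were lower.

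Of 12 Weibel-Palade body genes 5 were above 0 and 1, Edn1, past 2-fold, with a median of -0.04. Vwf, which is stored in the body together with P-selectin, was at 80.5 (73.2 to 88.3) against 40.8 (37.2 to 44.6) CPM. It did not follow the Selp count, at 77.5, 73.7 and 89.7 CPM. Cd63 and Angpt2, 2 further cargo proteins, were at 205 against 169.9 and 47.3 against 37.1 CPM. The trafficking genes Rab27a (-0.23), Rab3b (-0.12) and Rab3d (-0.01) were under 0.

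Of 11 coagulation genes 7 were above 0, 4 were past 1.5-fold higher (Thbd, Procr, Plaur, Entpd1) and 1 past 2-fold, with a median of 0.14. Plaur, the urokinase receptor, was at 95.6 (87.7 to 104) against 46.7 (42.9 to 50.8) CPM. Entpd1, which degrades ATP and ADP, was at 25.3 (21.3 to 29.8) against 8.55 (6.96 to 10.4) CPM. The anticoagulant Tfpi (-0.12), protein S (Pros1, -0.21) and factor VIII (F8, -0.17) were slightly lower, and the clotting initiator F3 was at 1.26 against 1.52 CPM. Of the 4 genes past 1.5-fold, Thbd and Procr belong to the protein C branch.

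Of 21 activin, BMP and TGF-beta genes 7 were above 0 and only Inhbb was past 2-fold, with a median of -0.08. The activin receptors were level (Acvr1 0.16, Acvr1b 0.09, Acvr2a -0.08, Acvr2b 0.07), and the activin antagonist Fst had 0 UMIs in Selp-positive cells. The endothelial ligands Bmp2 (-0.18) and Bmp6 (-0.42) and the response genes Id1 (-0.25), Id2 (-0.44), Id3 (-0.30), Smad6 (-0.15) and Smad7 (-0.18) were on the low side.

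Of 9 ADAMTS and protease genes 5 were above 0, 3 past 1.5-fold and 1 past 2-fold (Timp1), with a median of 0.22. Adamts5 was at 28.3 (24.1 to 33.1) against 13.0 (11.1 to 15.3) CPM and Adamts9 at 150.5 (140.5 to 161) against 99.7 (94.1 to 106) CPM, and Adamts1 was at 1659 against 1427 CPM. In gated recovery cells Adamts5 and Adamts9 were at 5.53 and 24.6 CPM. The protease inhibitor Timp3 (-0.24) and the lysosomal Ctsl (-0.30) were lower.

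Most genes of the inflammatory lists were above 0. Of 15 NF-kappaB response genes 14 were above 0 with a median of 0.25, although only Ccl2 was past 2-fold and Csf1 was the exception at -0.12. Nfkbia, the inhibitor induced by the factor, was at 1522 against 1129.7 CPM, and Tnip1 at 165 against 116 CPM. Of 15 IL-6 and STAT3 genes 12 were above 0 and 0 past 2-fold, with a median of 0.23. The interleukin-1 receptor Il1r1 was at 152 (142 to 163) against 83.8 (78.6 to 89.2) CPM and the transcription factor Cebpb at 295 (280.4 to 309) against 177 (169.6 to 185) CPM, while Socs3 was at 1493 against 1246 CPM.

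Of 8 chemokine genes 6 were above 0 with a median of 0.34. The neutrophil attractants Cxcl1 (141 against 97.7 CPM) and Cxcl2 (169 against 114 CPM) and the scavenging receptor Ackr3 (71.1 against 38.1 CPM) were higher. Cxcl9 (-0.23) and Cxcl16 (-0.30) were lower. Of 11 glycolysis and hypoxia genes 9 were above 0 with a median of 0.31, among them the glucose transporter Slc2a1 at 25.1 against 12.9 CPM and Pgk1 at 168 against 122 CPM. Of 16 immediate early genes 11 were above 0 with a median of 0.04, the highest being Ier3 at 0.55.

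**Figure D4:**
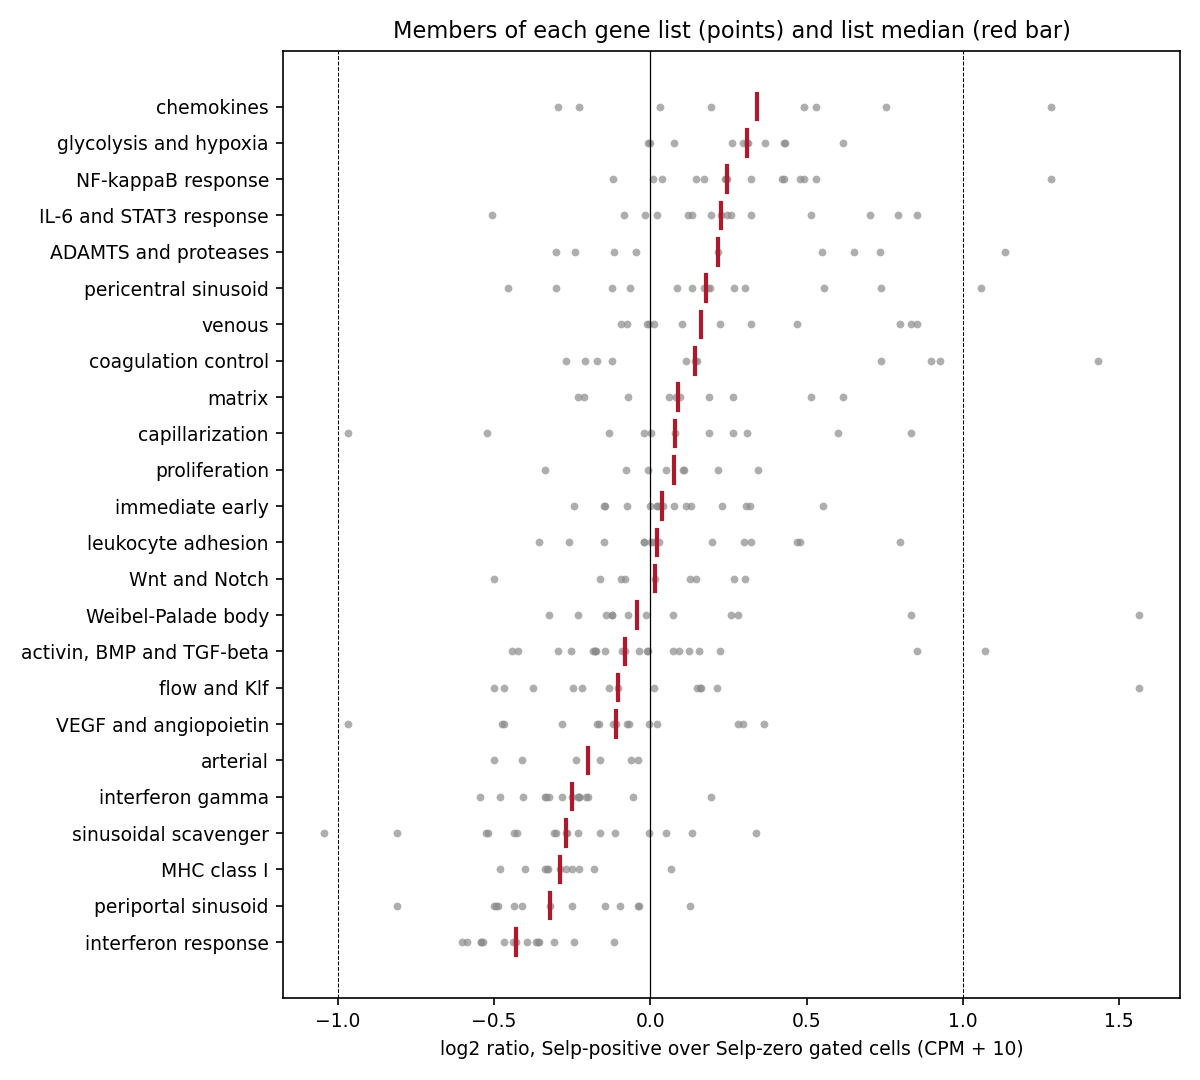
Log2 ratio of Selp-positive over Selp-zero gated cells at injury (horizontal axis, CPM with 10 added) for each compared member (points) of 24 gene lists (rows), with the list median as a red bar and dashed lines at 2-fold. Medians run from 0.34 for chemokines to -0.43 for the interferon response.

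The sinusoid has a zonal order from the portal to the central end, and the pericentral and periportal lists differed in direction. Of 14 pericentral genes 10 were above 0 with a median of 0.18, and Cdh13, at 128 (118 to 137) against 56.0 (51.8 to 60.5) CPM, was past 2-fold. Wnt2, a pericentral ligand, was at 197 against 162 CPM, the receptor Kit at 335 against 294 CPM and Lhx6 at 20.4 against 10.7 CPM. Gatm (-0.46) and Ctsl (-0.30) of the same list went the other way.

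Of 13 periportal genes 1 was above 0, Jag1 at 0.13, with a median of -0.32 and 0 past 2-fold. The Notch ligand Dll4 was at 76.5 (69.4 to 84.2) against 112 (106 to 119) CPM, the ephrin Efnb2 at 111 (103 to 120.5) against 151 (144 to 158) CPM and Ntn4 at 288 against 362 CPM. Of 17 scavenging genes of sinusoidal endothelium 3 were above 0 with a median of -0.27. The mannose receptor Mrc1 was at 1149 against 1547 CPM, Fcgr2b at 1631 against 2023 CPM and Cd36 at 792 against 1075 CPM, while the lipoprotein receptor Scarb1 (0.34) was among the exceptions. Of 12 venous genes 8 were above 0 with a median of 0.16, and the venous regulator Nr2f2 was at -0.09. All 6 arterial genes compared were below 0, with a median of -0.20.

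The Selp-positive cells were then set beside the 328 central vein cells, the other large source of Selp in the library. Of 8174 genes compared 26 (0.318%) were at least 2-fold higher in Selp-positive cells and 94 (1.15%) at least 2-fold lower. Genes of the large vein were far lower in Selp-positive cells. Bmp4 was at 1.80 (0.865 to 3.32) against 240.2 (221 to 260.0) CPM, Vwf at 80.5 against 593 (563 to 623) CPM, Edn1 at 77.6 against 459 (433 to 486) CPM and Fbln2 at 30.7 against 211 (194 to 230.1) CPM. For these 4 genes Selp-positive cells lay nearer to Selp-zero than to central vein cells. The 4 were taken from the genes lowest against central vein cells, so this does not hold for genes in general. Procr, at 37.4 CPM, lay nearer to the 57.1 CPM of central vein cells than to the 7.53 CPM of Selp-zero cells. Emp1 did so too, at 112 CPM beside 168 and 36.3 CPM.

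Some sinusoidal genes were higher in Selp-positive than in central vein cells, with Ctsl at 3420.3 against 1227 CPM, Msr1 at 160.2 against 32.7 CPM and Dll4 at 76.5 against 21.3 CPM. Esm1 was also higher, at 63.7 against 6.30 CPM. These genes were picked from the upper end of this comparison, so they do not stand for genes in general. Of the 15 highest genes 6 were higher in central vein than in Selp-positive cells. Among the others, Kcnj8 was at 54.7, Olr1 at 28.3 and Ch25h at 79.5 CPM in central vein cells, each under its level in Selp-positive cells. Lrg1 at 1090.2 and Thbd at 1462 CPM were also higher there, and Inhbb was similar at 477 CPM.

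The same contrast was read inside the central vein class, whose cells the rule had left out. At injury 270 central vein cells had 2 or more Selp UMIs and 44 had 0. All 15 of the highest genes were above 0 there, with Edn1 at 533 against 53.5 CPM and Kcnj8 at 61.8 against 10.0 CPM, and 14 of the 15 lowest genes were below 0, with Esm1 the exception at 0.35. The 44 Selp-zero cells carried Dcn, a mesenchymal gene, at 1371 CPM against 22.9 CPM in the 270. The part of such RNA in these ratios was not tested. The share of all genes above 0 inside the central vein class was not counted at either stage, so these counts have no background beside them. In recovery, with 120 and 40 cells, 10 of the 15 highest genes were above 0. Inhbb was at 37.9 against 83.1 CPM there (-0.96).

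Interferon-induced genes were lower in Selp-positive cells. Of 15 compared, 0 were above 0, with a median of -0.43 and 0 past 2-fold. The transcription factor Irf7, which amplifies interferon production, stood at 447 (429.7 to 465) against 655 (640.2 to 669) CPM, Bst2, which tethers virions, at 1188 against 1727 CPM, and Isg15 at 396 against 523 CPM. Of 15 interferon-gamma genes 1 was above 0, Cxcl10 at 0.19, with a median of -0.25. Of 11 MHC class I genes 1 was above 0, H2-Q7 at 0.07, with a median of -0.29.

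Gated injury cells fell into an interferon-low and an interferon-high range, with 16.8% of cells under 20 UMIs of the 16-gene list per 10000 and 134 cells between 20 and 30. Of the Selp-positive cells 32.3% (29.0 to 35.8) were under 20, against 222 of 2117 (9.21% to 11.9%) Selp-zero cells, 26.5% of central vein cells and 15.3% of duct cells. In recovery 87.4% of gated cells were under 20. Selp-positive cells made up 44.4% (40.2 to 48.6) of the 552 interferon-low and 18.8% (17.3 to 20.3) of the 2735 other gated cells. The share was 52.3% (46.1 to 58.4) at 0 to 10, 37.1% at 10 to 20 and 29.9% at 20 to 30 UMIs per 10000, then 19.0%, 17.9% and 18.7% up to 120. Above 120 it was 39 of 243 cells (11.7% to 21.3%), the lowest of the 7 bins. The low range appears in duct cells of the same library too, and the number of mice in the library is not in the labels, so differences between mice and between cells of 1 mouse cannot be told apart.

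Within each range the main contrast was read again, a division added after the data were seen. Among interferon-low cells (245 Selp-positive, 222 Selp-zero) 14 of the 15 highest genes were above 0, and among the others (513 and 1895) all 15. The lowest genes were below 0 for 13 of 15 and 15 of 15. The ranges divide the cells on which these genes were chosen, so the counts are description only and not a separate check. The share of all compared genes that kept their sign was not counted. Olr1 was at 94.1 against 12.1 CPM in interferon-low and 40.9 against 6.76 CPM in other cells. The ratio of Ch25h was similar in both, at 1.35 and 1.30.

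Other genes depended on the range. The ratio of Inhbb was 1.07 over all cells, but 0.55 in interferon-low cells, at 1037 against 708 CPM, and 0.42 in the others, at 256 against 189 CPM. The level of Inhbb was thus several times higher in interferon-low cells of either Selp class. Thbd (0.72 and 0.46), Lrg1 (0.84 and 0.55) and Adamts4 (0.62 and 0.59) were above 0 in both ranges, and Lyve1 was at 0.19 and -0.05. Edn1 was at -0.01 in interferon-low and 1.95 in other cells, and Vwf at -0.91 and 1.26. Procr was at 82.1 against 12.9 CPM in interferon-low and 15.3 against 6.94 CPM in other cells. Edn1 and Vwf were thus higher in Selp-positive cells of the higher interferon range and not of the lower, a difference that was not tested.

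**Figure D5:**
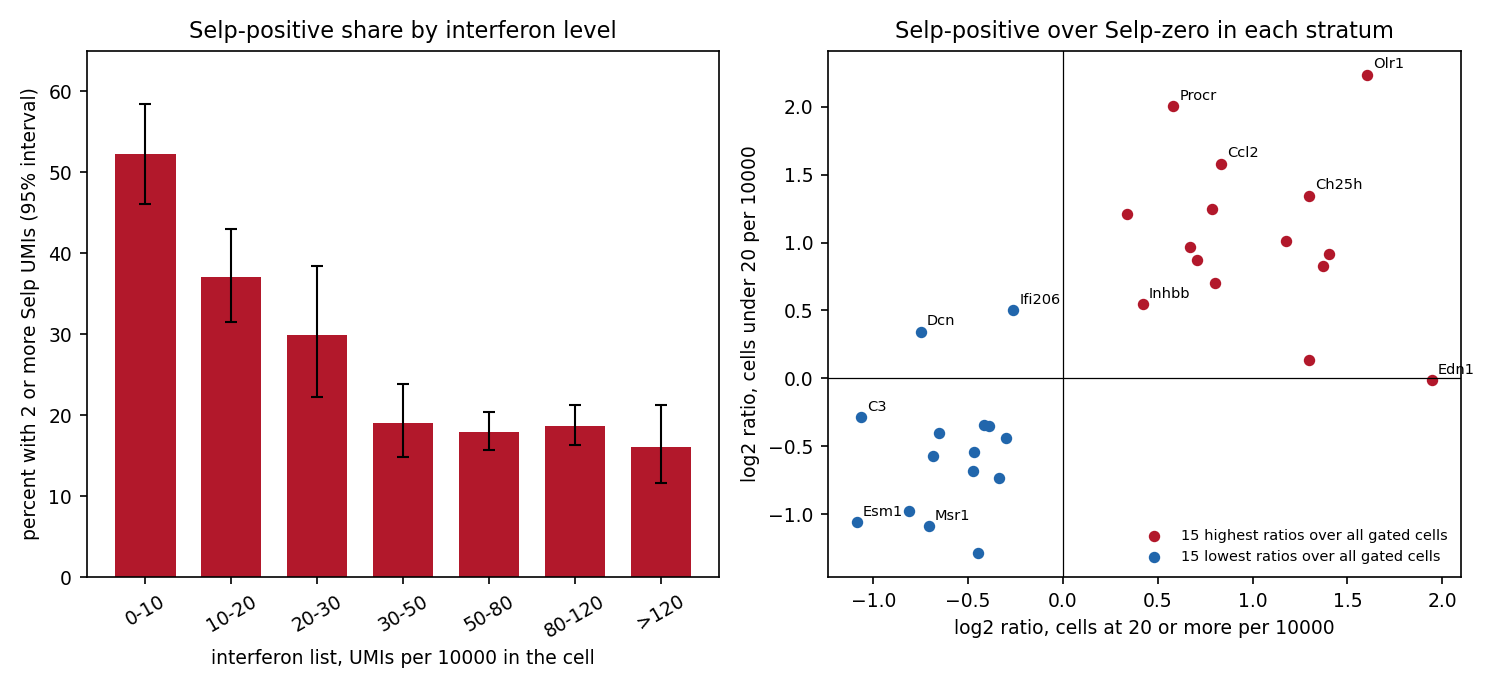
Left, percent of gated injury cells with 2 or more Selp UMIs (vertical axis, exact 95% intervals) by UMIs of the interferon list per 10000 (horizontal axis), from 52.3% in the lowest bin to 39 of 243 cells in the highest. Right, log2 ratio of Selp-positive over Selp-zero cells for the 15 highest and 15 lowest genes in cells at 20 or more (horizontal) and under 20 (vertical) UMIs per 10000. Edn1 is at 1.95 on the horizontal and -0.01 on the vertical axis, and Inhbb at 0.42 and 0.55.

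Clusters of the gated injury cells, built without Selp and the rule genes, differed in their share of Selp-positive cells. Selp-positive cells were 43.9% (40.2 to 47.7) of cluster 4, led by Inhbb, Kcnj8, Actn1 and Ch25h, where the interferon list summed to 1677 CPM. They were 30.8% (27.4 to 34.3) of cluster 0, led by Wnt2, C1qb, Rab3b, Kit and Cdh13. The macrophage gene C1qa was also among the leading genes of cluster 0, as C1qb was. Selp-positive cells were 42.2% (29.9 to 55.2) of the 64 cells of cluster 6, led by Vwf, Mgp, Ly6c1, Igfbp5 and Fbln2. Clusters 4 and 0 held 40.1% and 29.0% of all Selp-positive cells. Inside cluster 4 Selp-positive cells had higher levels of the markers than Selp-zero cells, with log2 ratios of 0.50 for Inhbb, 0.81 for Lrg1, 0.69 for Thbd and 0.59 for Adamts4. Inside cluster 0 the same 4 genes were nearly level, at 0.01, 0.16, 0.14 and 0.19, with Inhbb at 172 against 171 CPM, while Edn1 was at 77.3 against 12.1 CPM. Of the 15 highest genes 14 were above 0 in cluster 0, 10 in cluster 1, 15 in cluster 2 and 15 in cluster 4. The clusters too divide the cells on which these genes were chosen, so the counts are not a separate check. The share of Selp-positive cells was 14.6% in cluster 2, where the interferon list summed to 9158 CPM. That cluster was led by Cxcl9, C3 and Rsad2, with Esm1 and Msr1 further down. In cluster 1, whose median depth was 4371 UMIs, the share was 5.96%. Clusters are given by number and their leading genes are not results.

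In recovery 14 cells met the rule, under the minimum of 30 set for a comparison. The 35 gated recovery cells with at least 1 Selp UMI had Vwf at 395 (329 to 469.9) against 18.8 CPM in the 2050 without, Fbln2 at 448 (378 to 527) against 24.7 CPM, Mgp at 460.3 (389 to 541) against 2.65 CPM and Edn1 at 264 (211 to 327) against 33.4 CPM. All of these are genes of larger vessels. Olr1 had 0 UMIs in these 35 cells, with an interval up to 11.5 CPM, and Inhbb was at 59.1 (35.6 to 92.3) against 57.4 CPM. The Inhbb, Ch25h and Adamts4 levels of Selp-positive injury cells were not reached by central vein cells in recovery either, which had Inhbb at 44.3, Ch25h at 30.4 and Adamts4 at 17.9 CPM. Selp-zero injury cells also exceeded Selp-zero recovery cells for 10 of the 15 highest genes, among them Ccl2, Ch25h and Inhbb. Levels of these 10 were thus higher at injury in cells without a Selp UMI too. Edn1 (-0.55), Cdh13 (-0.85), Fbln2 (-0.81), Map1b (-0.33) and Sh3pxd2a (-0.30) were lower at injury in Selp-zero cells. The share of all genes higher at injury was not counted, so the 10 of 15 has no background beside it. Injury and recovery were 1 library each, and stage, library and mice cannot be told apart.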

How the data were processed

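Non-parenchymal liver cells were isolated by EGTA perfusion, Pronase (14 mg per mouse), Collagenase (3.7 U per mouse) and a Nycodenz gradient and run on the 10x single cell 3′ v2 platform, per the labels' protocols. The deposited files hold raw UMI counts per gene and barcode for 31053 features, in matrices that the authors had filtered to cell barcodes, per the file names and headers (software version 3.1.0). The submitters' processing notes list mm10 and GRCh38, fastp and featureCounts 1.6.2. For the aligner and cell calling, settings were not given in the sources used here. A tdTomato feature was not among the 31053, so the reporter was not checked.

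UMI counts were summed over the cells of each class and scaled to CPM. Ratios are log2 of CPM with 10 added, over genes with a mean of at least 10 CPM in the 2 classes. Genes called past 2-fold have a log2 ratio of at least 1 in size, by size alone and with no test, since each group was 1 library. Intervals are exact Poisson (CPM) or Clopper-Pearson (shares) at 95% and cover counting error only. Named genes were the 15 highest and 15 lowest ratios at a mean of at least 20 CPM, the markers, and examples of 25 pathway and 15 cell marker lists. The members and lists were chosen with earlier results of these data known. The ratios were checked on simulated data. Clustering used scanpy 1.11.5 and leidenalg 0.10.2 (resolution 0.5) without Selp and the rule genes. Alternatives were TMM factors (edgeR 4.0.16), 1 CPM added, no filter, equal weight per cell, depth, Selp, gate and mitochondrial limits, removal of high doublet scores and thinning. Strata of the interferon list and a limit of 0 Rspo3 plus Wnt9b UMIs were chosen after seeing the data. Promoters of genes on mouse chromosome 18 were not searched.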

Additional observations from a re-analysis of the deposited data

Results flagged for a closer look

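Within central vein cells of recovery (120 with 2 or more Selp UMIs, 40 with 0), 5 of the 15 genes that were highest in Selp-positive gated injury cells had a ratio below 0, and 2 of them, Inhbb and Map1b, were past 1.5-fold lower. The other 3 were Ccl2 (-0.39), Npy (-0.37) and Sh3pxd2a (-0.22). The log2 ratio of Inhbb was -0.96 there, against 1.07 in gated cells and 1.29 in central vein cells at injury. That of Map1b was -0.74, against 1.12 and 1.84. The difference between the sets was not tested, since each stage was 1 library.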

How the results depend on the processing

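The count of genes at least 2-fold higher was 17 with TMM factors, without the filter, with equal weight per cell and with at most 10% mitochondrial UMIs. It was 43 with 1 CPM added, 9 with members of 1 or more Selp UMIs, 10 with a gate of 60 per 10000 and 9 at 20 or more interferon-list UMIs per 10000. Under 20 interferon-list UMIs per 10000 it was 22, and other settings gave 18 to 25. Of the 17 genes, 8 were among the 22 under 20 and 7 among the 9 at 20 or more. The 2 lower genes became 4 with 1 CPM added, 25 under 20 and 4 at 20 or more interferon-list UMIs per 10000. They became 1 in cells of 5000 to 15000 UMIs, with 1 or more Selp UMIs, without high doublet scores and with 0 Rspo3 plus Wnt9b UMIs. Of the 2 lower genes, 0 were among the 25 under 20 interferon-list UMIs per 10000. The injury share of 23.1% was 3.89% after thinning to 1000 UMIs, 29.3% in cells of 5000 to 15000 UMIs, 21.2% with the gate of 60, 21.4% with 0 Rspo3 plus Wnt9b UMIs, and 44.4% and 18.8% in the 2 interferon ranges. The recovery share of 0.671% was 0.0959% after thinning and 0.293% with the gate of 60. Signs turned for Edn1 (-0.014), Dcn (0.34) and Ifi206 (0.50) under 20 interferon-list UMIs per 10000, and for C3 in cells of 5000 to 15000 UMIs (0.15) and without high doublet scores (0.18), and the cause was not tested. Injury against recovery was not run for Selp-positive cells, with 14 in recovery. No paired analysis was possible because each group had 1 library. Depth limits low genes such as Olr1, seen in 14.5% of Selp-positive cells, and a cell with few UMIs can hold Selp transcripts that were not counted.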
